A study of Mus musculus with 4 samples.

Results

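The natural killer (NK) cells of aged mouse lung described here were 563 of 68675 barcodes kept in 4 single-cell RNA libraries. A kept barcode had at least 500 genes, at least 1000 transcripts counted by unique molecular identifier (UMI) and at most 10% mitochondrial UMIs. The members were chosen by 9 genes' UMIs, and an NK cell was a kept barcode with a UMI of Ncr1, with UMIs of at least 2 of the 4 genes Klrb1c, Klre1, Prf1 and Gzma, and with none of Cd3d, Cd3e, Trac or Cd79a. Ncr1 encodes the activating receptor NKp46, Klrb1c encodes NK1.1 and Klre1 another lectin-like receptor, and Prf1 and Gzma encode the killing proteins perforin and granzyme A. Cd3d, Cd3e and Trac mark T cells and Cd79a marks B cells. The lungs came from male C57BL/6 mice, 19 months old when dosing started, given for 1 month either BPTES, a small-molecule inhibitor of glutamine breakdown, or DMSO, the vehicle. Each treatment had 2 libraries, called here BPTES 1 and 2 and DMSO 1 and 2, and no untreated or young group is analysed here. Per library, 20000 CD45-negative and 9000 CD45-positive cells sorted from the same tissue were pooled and run on a 10x Genomics 3' kit, after a digestion of 1 h. The labels do not say whether the 2 libraries of a treatment came from separate animals, so the p-values measure only the spread between these libraries.

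NK cells are lymphocytes that kill infected or transformed cells without rearranged antigen receptors, by releasing perforin and granzymes at a contact with the target. Their activity is set by the balance of activating receptors and of inhibitory receptors, many of which, such as the Ly49 family of the mouse, bind MHC class I. Mouse NK cells mature from a stage that carries CD27 to one that carries CD11b, the product of Itgam, and late cells gain the inhibitory receptor KLRG1. The lung holds a large circulating pool of mature NK cells and fewer tissue-resident innate lymphocytes that resemble them, named ILC1.

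BPTES 1 held 118 NK cells, BPTES 2 held 143, DMSO 1 held 169 and DMSO 2 held 133. Their median depth was 14044.5, 13460 (BPTES) and 13125, 13846 (DMSO) UMIs per cell, a range that the treatments shared. Summed over cells, 1965991 to 2437793 UMIs stood behind each library's NK profile. The libraries as a whole had 15349 to 20549 kept barcodes and 260346570 to 342107092 UMIs. Pairs of libraries shared 65 to 104 barcode sequences, but no NK barcode recurred as an NK barcode in another library and 4 recurred among all kept barcodes.

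Genes that the rule did not use separated members from barcodes with none of the 4 further genes (Klrb1c, Klre1, Prf1 and Gzma). Not all of them separated members from barcodes with 1. Eomes, the transcription factor that separates NK cells from ILC1, was higher the more of the further genes a barcode with Ncr1 and none of the absent genes had. It stood at 304 CPM (counts, UMIs scaled to a fixed total per sum of cells) in the 509 cells with all 4, 142 in the 33 with 3 and 73.7 in the 21 with 2. Just outside the rule, the 15 barcodes with 1 further gene had 15.7 CPM of Eomes and the 68 with none had 1.43 CPM. Il7r, the interleukin-7 receptor of T cells and of many innate lymphoid cells, had 51.2 CPM with all 4 genes, 531 with 3, 361 with 2, 587 with 1 and 18.6 with none. With 4, 3, 2, 1 and none of the further genes, Nkg7 stood at 2197, 1040, 644, 241 and 2.14 CPM and Klrd1 at 584, 378, 322, 225 and 2.86 CPM. Klrk1 stood at 829, 932, 927, 959 and 10.7 CPM and Tyrobp at 1535, 1270, 826, 896 and 457 CPM in the same order. Il2rb had a UMI in 99.6, 100, 90.5, 93.3 and 4.41% of these barcodes. The members with 2 or 3 further genes thus carried less Eomes and more Il7r than the members with all 4, and they return below. A further 12 barcodes had all 4 genes but no Ncr1, 30 members had exactly 1 Ncr1 UMI, and 210 barcodes failed only because a T or B cell gene had a UMI.

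Low counts of other lineages' transcripts were common among the NK barcodes. Removing every cell with at least 3 UMIs over 2 genes of one list of B cell, myeloid, endothelial, epithelial or fibroblast markers left 32 and 49 cells under BPTES and 87 and 45 under DMSO. No doublet caller was run. The rule removes barcodes with the 4 T and B cell genes, but not those that join an NK cell with a myeloid, endothelial, epithelial or fibroblast cell. The 5 epithelial markers summed to 4023 and 245 CPM in BPTES 1 and 2 and to 86.1 and 159 CPM in DMSO 1 and 2, and 92.8% of those UMIs in BPTES 1 lay in 2 cells. The 5 endothelial markers summed to 369 and 193 CPM under BPTES and 514 and 442 CPM under DMSO, and the 7 myeloid markers to 1509 and 580 CPM under BPTES and 447 and 1947 CPM under DMSO. Leaving out cells with at least 15 UMIs over at least 3 genes of one of these lists (13, 13, 19 and 16 cells, called here cells rich in other-lineage UMIs) brought the myeloid sum to 80.5 to 113 CPM and the epithelial sum to 329.7, 241, 88.5 and 169 CPM. The endothelial sum was then 126 and 98.6 CPM under BPTES and 122 and 138 CPM under DMSO. The 6 B cell markers summed to 902 and 376 CPM under BPTES and 374 and 982 CPM under DMSO. Without the rich cells they summed to 142 and 122 CPM under BPTES and 153 and 587 CPM under DMSO. The 8 T cell markers outside the rule summed to 321 and 336 CPM under BPTES and 247 and 196 CPM under DMSO, against 2198 to 2526 CPM in T cells. Without the rich cells they summed to 387 and 359.6 CPM under BPTES and 272 and 226 CPM under DMSO, so both BPTES libraries were higher either way. Cd3g had 18 and 3 UMIs under BPTES and none under DMSO, and Cd4 was at 0 in all 4 libraries. Of the list only Cd28 (139 and 158 CPM under BPTES and 103 and 70.1 CPM under DMSO) and Trbc2 (158 and 178 CPM under BPTES and 139 and 124 CPM under DMSO) were high enough to test, and both were higher under BPTES with no overlap and an unadjusted p under 0.05 (adjusted p = 0.29 and 0.469). Of all genes tested between treatments, 20.1% were higher under BPTES without overlap and 4.8% were higher at an unadjusted p under 0.05. The part of T cell RNA in the treatment differences below was not tested. Results that rest on the rich cells are given with and without them.

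NK cells made up 2.12% (exact 95% binomial interval 1.76 to 2.53%) and 2.31% (1.95 to 2.71%) of the barcodes positive for Ptprc, which encodes CD45, in BPTES 1 and 2. In DMSO 1 and 2 they made up 3.03% (2.59 to 3.51%) and 1.68% (1.41 to 1.99%), the highest and the lowest of the 4 values, so the treatments overlapped. The mean was 2.21% ± 0.136 (SD, n = 2) for BPTES and 2.36% ± 0.949 (SD, n = 2) for DMSO, and the difference of -0.144 percentage points had a p of 1 in an exact two-sided permutation test, in which 2 libraries against 2 cannot go below 0.33. Without DMSO 1 the difference was 0.527 percentage points. Against T cells, the closest lymphocytes, NK cells were 11.3% and 10.8% of T and NK cells together under BPTES and 17.4% and 9.49% under DMSO. The sort fixed how many CD45-positive cells entered, so these shares describe the composition of that fraction and not the number of NK cells in the lung.

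**Figure D1:**
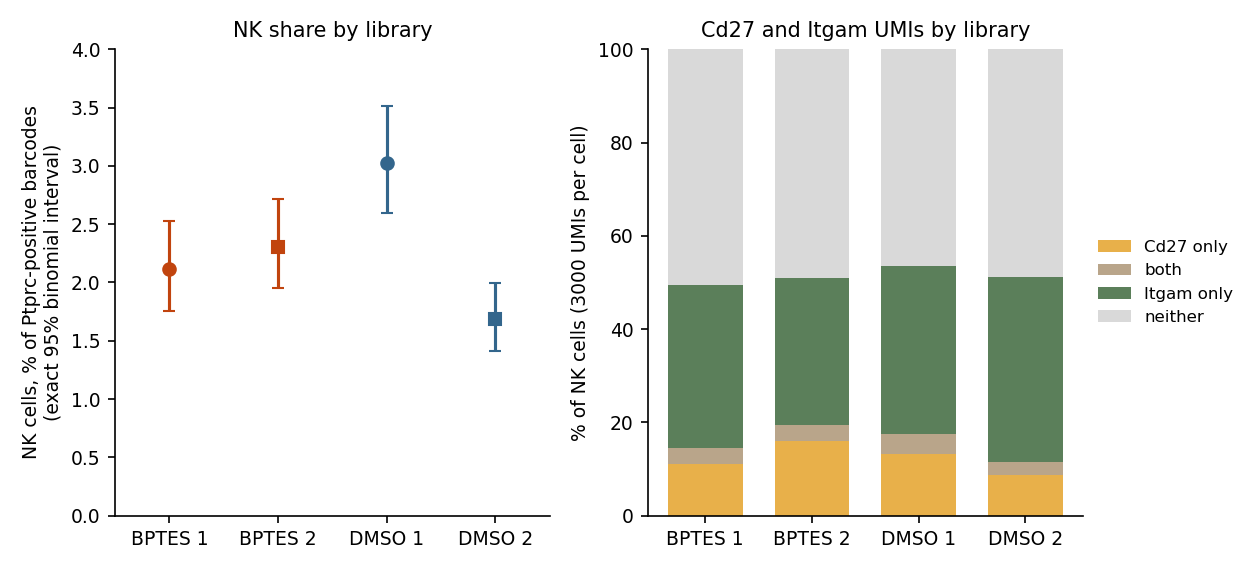
Left, NK cells as percent of barcodes with a Ptprc UMI in each library, with exact 95% binomial intervals that cover counting error only; right, the percent of NK cells with a UMI of Cd27 only, of both genes, of Itgam only or of neither, at 3000 UMIs per cell. DMSO 1 (3.03%) and DMSO 2 (1.68%) bracket both BPTES libraries, and the Itgam-only share lies between 31.5% and 39.6% in all 4.

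Maturation was read from UMIs of Cd27 and Itgam at an equal depth of 3000 UMIs per cell, which left out 4 shallower cells in each DMSO library and none under BPTES. Cells with Itgam only, the mature side, were 34.9% and 31.5% under BPTES and 36.0% and 39.6% under DMSO. Cells with Cd27 only, the immature side, were 11.1% and 16.0% under BPTES and 13.3% and 8.72% under DMSO, and cells with both were 3.49% and 3.51% under BPTES and 4.20% and 2.78% under DMSO. Neither gene was seen in 50.5% and 49.0% of cells under BPTES and in 46.6% and 48.9% under DMSO, so many cells had no stage at this depth. At full depth cells with both genes were 21.2% and 21.0% under BPTES and 22.5% and 18.0% under DMSO. A cell with a UMI of 1 of the genes at 3000 UMIs may thus carry the other too. Itgam-only cells outnumbered Cd27-only cells in every library. At 3000 UMIs the Itgam-only share was lower in both BPTES libraries than in either DMSO library (difference -4.55 percentage points, exact p = 0.33, the smallest the design allows). The share with neither gene was higher in both (2.00, exact p = 0.33), while the treatments overlapped for Cd27 only (2.54, exact p = 0.667) and for both genes (0.00953, exact p = 1). At full depth the Itgam-only shares overlapped, at 55.08% and 47.55% under BPTES and 55.03% and 57.14% under DMSO. The Cd27-only shares then did not, at 14.41% and 23.08% under BPTES and 13.02% and 9.77% under DMSO. The share with neither gene was then lower in both BPTES libraries (difference -3.40 percentage points). Which stage separated the treatments thus depended on the depth. A stricter rule removed cells with other-lineage UMIs (at least 3 UMIs over 2 genes of one list). The Itgam-only difference at 3000 UMIs was then 0.341 percentage points in the 32 to 87 cells left per library.

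Klrg1, the late-stage receptor, had a UMI in 36.8% and 32.0% of NK cells under BPTES and in 33.2% and 37.0% under DMSO at 3000 UMIs. The treatments overlapped. At full depth the shares were 62.7% and 53.1% under BPTES and 57.4% and 62.4% under DMSO for Klrg1, 76.3% and 68.5% against 77.5% and 75.2% for Itgam, and 35.6% and 44.1% against 35.5% and 27.8% for Cd27. B cells, taken as a class low in these genes and with median depths of 12805.5 to 13387 UMIs, had at most 0.00913% with Klrg1, 0.610 to 1.09% with Cd27 and 3.18 to 5.19% with Itgam at 3000 UMIs, so the NK shares were above those of B cells. The part of free RNA in the B cell shares was not tested. T cells had Cd27 in 20.3 to 25.0%, Itgam in 2.60 to 3.45% and Klrg1 in 3.25 to 4.61% of cells at that depth.

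Within NK cells, the Itgam-only and the Cd27-only cells differed in many genes. Granzyme B, Ly6c2, Zeb2, the Ly49 receptor gene Klra9 and the inflammatory chemokines Ccl3, Ccl4 and Ccl5 were higher in the Itgam-only cells, and Emb, Cd7, Ccr2 and many ribosomal protein genes were higher in the Cd27-only cells. Counts of 14 to 20 Cd27-only and 40 to 61 Itgam-only cells per library, thinned to 3000 UMIs each, were summed and compared within libraries with edgeR's quasi-likelihood test and Benjamini-Hochberg adjustment. Of 2516 genes tested, 221 (8.78%) passed an adjusted p under 0.05. The Itgam-only cells were higher in 92 of these (3.66% of the genes tested) and lower in 129 (5.13%). A gene was tested where at least 2 sums reached 10 UMIs at the median depth, here 111 CPM. Genes that reach this in 1 stage only had to differ, so their levels are given with no test. Of the 1711 genes that reach it in either stage alone, 66 (3.86%) rose and 102 (5.96%) fell in the Itgam-only cells. In 26% of the genes tested the difference between stages had one sign in all 4 libraries, higher in the Itgam-only cells for 13.9% and lower for 12.1%. Without DMSO 2 the count was 108, and without any other single library it was 169 or 170. Ribosomal protein genes, a family chosen after these calls were seen, made up 49 of the 129 lower calls and none of the higher ones. Of 79 such genes tested the median log2 fold change was -0.51, and they took 15.7, 17.3, 13.3 and 16.5% of the counts in the Cd27-only cells and 11.9, 10.6, 10.7 and 10.2% in the Itgam-only cells of BPTES 1, BPTES 2, DMSO 1 and DMSO 2. With DESeq2 22 of them passed, at 2000 UMIs per cell 12, without BPTES 2 23 and without DMSO 2 17, all lower. Thinned to 10000 UMIs, 686 genes passed, of which 197 were shared with the 221 and 2 had the opposite sign.

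Of the 8 tested genes of the mature list, 4 were abundant enough in either stage alone, and all 4 (Gzmb, Ly6c2, Zeb2 and Spn) rose in the Itgam-only cells, against 3.86% of all such genes. Klrg1, testable through the Itgam-only cells alone, stood at 0, 42.8, 22.2 and 30.0 CPM in the Cd27-only cells of BPTES 1, BPTES 2, DMSO 1 and DMSO 2, and 462, 347, 263 and 355 CPM in their Itgam-only cells. Gzmb, granzyme B, stood at 258, 364, 199.998 and 210.0 CPM in the Cd27-only cells of BPTES 1, BPTES 2, DMSO 1 and DMSO 2, and 1774, 1379.7, 1567 and 1773 CPM in their Itgam-only cells. Every library's Itgam-only value lay above every Cd27-only value for both genes. The log2 fold change was 2.61 for Gzmb (adjusted p = 1.82e-16), 2.16 for Ly6c2, 1.98 for the repressor gene Zeb2 and 1.08 for Spn, encoding CD43. Cma1, a mast cell-type chymase gene, had 21.4 to 77.5 CPM in the Cd27-only cells and 344 to 521 CPM in the Itgam-only cells, and the egress receptor gene S1pr5 had 25.8 to 85.7 CPM in the Cd27-only cells and 147 to 182 CPM in the Itgam-only cells, both testable through the Itgam-only cells alone. Cell by cell, Klrg1 had a UMI in 0, 10.0, 5.56 and 7.14% of Cd27-only cells and in 55.0, 43.9, 47.5 and 45.6% of Itgam-only cells of BPTES 1, BPTES 2, DMSO 1 and DMSO 2.

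Of the 8 tested genes of the immature list, 4 were abundant enough in either stage alone, and 3 of these (Emb, Cd7 and Xcl1) fell in the Itgam-only cells, against 5.96% of all such genes. Emb, encoding the adhesion protein embigin, stood at 2609.5, 1821, 2844 and 2429 CPM in the Cd27-only cells of BPTES 1, BPTES 2, DMSO 1 and DMSO 2, and 504, 307, 527 and 266 CPM in their Itgam-only cells, with no overlap (log2 fold change -2.61 ± 0.17 SE, adjusted p = 5.25e-22). Ltb, encoding lymphotoxin beta, had 88.9 to 364 CPM in the Cd27-only cells and 0 to 51.1 CPM in the Itgam-only cells, and Tcf7, encoding the transcription factor TCF-1 of early lymphocytes, had 207 to 444 CPM in the Cd27-only cells and 74.3 to 115 CPM in the Itgam-only cells, both testable through the Cd27-only cells alone. Cd7 fell by 1.81 and Xcl1, a chemokine gene that attracts cross-presenting dendritic cells, fell by 0.77 on the log2 scale. The Xcl1 call was lost with DESeq2 (adjusted p = 0.0542) and with every gene that had a UMI in the fit (0.123). Il7r was not called.

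**Figure D2:**
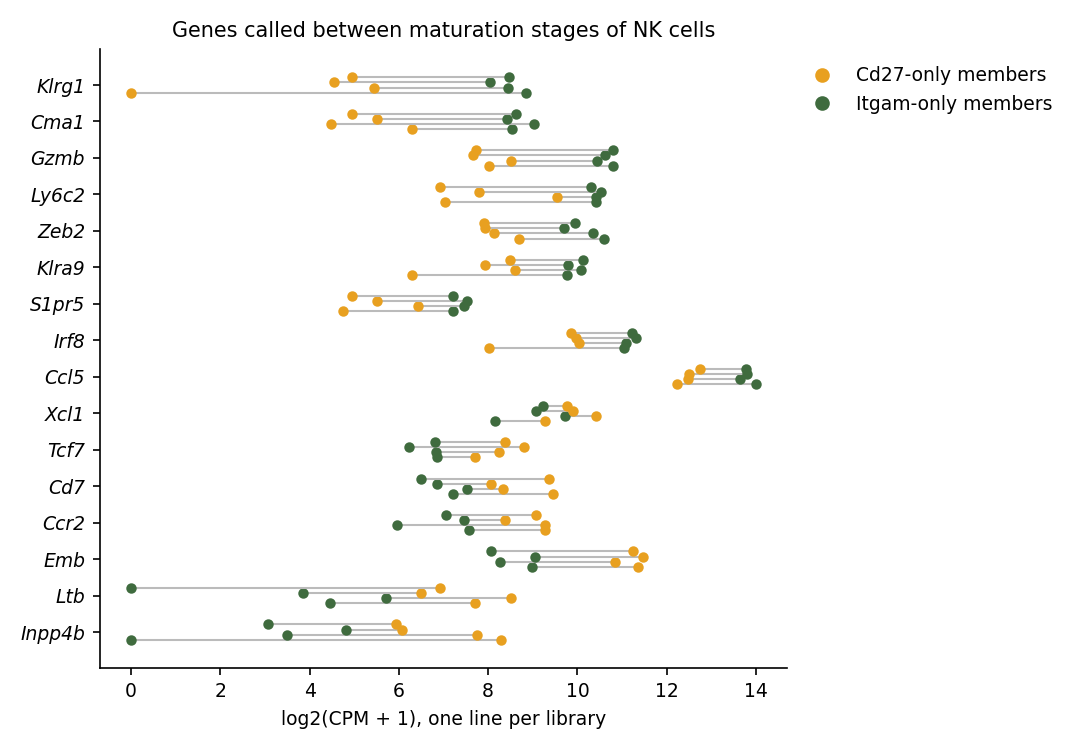
Levels of 16 genes called between stages, as log2(CPM + 1) of summed counts at 3000 UMIs per cell; Klrg1, Tcf7 and others were abundant enough to test in 1 stage only; each grey line joins the Cd27-only (orange) and the Itgam-only (green) cells of one library. For Klrg1, Gzmb and Ccl5 all 4 green points lie to the right of the orange ones, and for Emb, Cd7 and Tcf7 all 4 lie to the left.

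Some effector genes were also called between stages. Of the genes abundant enough in either stage alone, 3 of 5 cytokine and chemokine genes rose and 1, Xcl1, fell, 3 of 9 granule genes rose and 2 of 8 cytokine receptor genes rose, against 3.86% higher and 5.96% lower of all such genes. Ccl5 had 4831 to 6839 CPM in the Cd27-only cells and 12816 to 16256 CPM in the Itgam-only cells (log2 fold change 1.32 ± 0.12 SE, adjusted p = 1.16e-15), and its relatives Ccl4 (1.34) and Ccl3 (1.25), chemokines that attract other leukocytes, rose as well. Among the called granule genes Gzmb, which is also on the mature list, led, Nkg7 had a log2 fold change of 0.71 and Serpinb9, the inhibitor that shields the killer from granzyme B, one of 0.61. Stx11, a fusion protein gene of granule release, had 30.0 to 51.7 CPM in the Cd27-only cells and 133 to 215 CPM in the Itgam-only cells. The rule's own genes are given as levels: Prf1 had 594 to 1114 CPM in the Cd27-only cells and 1881 to 2593 CPM in the Itgam-only cells, and Gzma had 1709.6 to 3620.3 CPM in the Cd27-only cells and 10731 to 12431 CPM in the Itgam-only cells. Il18rap, a chain of the interleukin-18 receptor, rose by 1.17 and Il12rb2, a chain of the interleukin-12 receptor, by 0.74 on the log2 scale. Entpd1, encoding the ectonucleotidase CD39, stood at 0 to 42.8 CPM in the Cd27-only cells and 209 to 347 CPM in the Itgam-only cells. Stx11 and Entpd1 were testable through the Itgam-only cells alone.

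Of the receptor, regulator and migration genes abundant enough in either stage alone, 3 of 11 activating receptor and adaptor genes and 2 of 6 inhibitory receptor genes rose, with none lower, 4 of 15 transcription factor genes rose and 1 fell, and 3 of 11 trafficking genes rose and 2 fell, against 3.86% higher and 5.96% lower of all such genes. Among inhibitory receptors Klra9 (1.89) and Klra3 (1.15), of the Ly49 family, rose in the Itgam-only cells. The Klra genes are close copies of one another, so reads may be shared among them and single-gene values are uncertain. The activating receptor genes Cd244 (1.14) and Slamf7 (0.99) and the adaptor gene Fcer1g (0.58) rose. Among transcription factors Zeb2, Irf8 (1.53), Id2 (0.74) and Klf2 (0.51) rose and Tox (-1.20) fell. Eomes had 336 to 643 CPM in the Cd27-only cells and 336 to 554 CPM in the Itgam-only cells (-0.13, adjusted p = 0.823), overlapping widely, and Tbx21, encoding T-bet, had a log2 fold change of 0.67 (adjusted p = 0.0728). Of the trafficking list, the integrin genes Itga4 (0.87), Itgb2 (1.13) and Itga2 (0.74) rose, whereas the chemokine receptor gene Ccr2 (-1.88) and the retention gene Cd69 (-1.05) fell.

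Several of these calls did not hold under other settings. Without the cells rich in other-lineage UMIs, Cd244 (adjusted p = 0.0831), Slamf7 (0.109), Fcer1g (0.203), Klra3 (0.0611), Itga2 (0.312) and Cd69 (0.365) did not pass, and DESeq2 called none of these 6 genes, nor Klf2 (0.21), Id2 (0.0542), Spn (0.1) or Serpinb9 (0.0685). At 2000 UMIs per cell the log2 fold change of Cd244 was 0.031. Single libraries decided others: Slamf7 did not pass without any one of the 4 libraries, Itga2 without BPTES 1, BPTES 2 or DMSO 2, Cd69 without BPTES 2 (log2 fold change -0.63) or DMSO 2, Fcer1g without DMSO 1 or DMSO 2, Klf2 and Id2 without BPTES 1 or DMSO 2, and Cd244 and Spn without DMSO 2. Serpinb9 did not pass without BPTES 1.

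Some of the stage calls moved with other cells' transcripts. The myeloid markers S100a8 (0 to 42.8 CPM in the Cd27-only cells and 20.4 to 901 CPM in the Itgam-only cells), S100a9 (21.4 to 44.4 CPM in the Cd27-only cells and 20.4 to 1226 CPM in the Itgam-only cells) and Lyz2 (0 to 129 CPM in the Cd27-only cells and 204 to 567 CPM in the Itgam-only cells) were testable through the Itgam-only cells alone, where Itgam itself is also a myeloid gene, and Il1b and Cdc20b had UMIs only on that side. The endothelial marker Pecam1, testable through the Cd27-only cells alone, had 155 to 329.9 CPM in the Cd27-only cells and 40.9 to 118 CPM in the Itgam-only cells, and it was not called without the rich cells. The part of other cells' RNA in these differences was not tested. Lyz2 was reversed at 2000 UMIs per cell (log2 fold change -0.30). Without the cells rich in other-lineage UMIs 183 genes passed, 127 of them shared with the 221. Inpp4b, an inositol phosphatase gene of the ILC1 list, had 60.0 to 310.0 CPM in the Cd27-only cells and 0 to 27.0 CPM in the Itgam-only cells, and the T cell co-stimulator gene Cd28 had 181 to 389.9 CPM in the Cd27-only cells and 44.3 to 174 CPM in the Itgam-only cells, both testable through the Cd27-only cells alone. The same held for Dscam, Plxnc1, Fhit and Tapbpl, which were higher on that side. Tapbpl (chr6:125223933-125231860) lies near Cd27 (chr6:125232622-125237010) on the same minus strand. Cd27 UMIs chose these cells, and the part of Cd27 reads in the Tapbpl counts was not tested.

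Between treatments, NK cells differed in few genes. Under BPTES the cycle genes Stmn1 and Top2a, the histone genes Hist1h1b and Hist2h2ac, 2 tubulin genes and Inpp4b rose, and the named maturation, killing, receptor and glutamine genes did not pass the test. Summed NK counts were compared with edgeR's quasi-likelihood test and Benjamini-Hochberg adjustment, leaving out the 9 genes of the rule from the calls. Of 10223 genes tested, 18 (0.176%) passed an adjusted p under 0.05, 17 higher under BPTES (0.166%) and 1 lower (0.00978%). At an unadjusted p under 0.05 there were 939 genes (9.19%), 491 higher (4.8%) and 448 lower (4.38%). In 39.7% of all genes tested the 2 BPTES libraries did not overlap the 2 DMSO libraries, with BPTES higher in 20.1% and lower in 19.6%. Leaving out BPTES 1 gave 66 calls and leaving out BPTES 2 gave 30. DESeq2 called 38 genes (0.372%), among them all 18. The filter stood at 4.81 CPM in 2 libraries, and 7 of the 18 calls reached it in either treatment alone (0.0777% of the 9013 such genes): Stmn1, Top2a, Hist1h1b, Hist2h2ac, Tubb5, Tuba1b and Inpp4b. The other calls were testable through 1 treatment only and had to differ, so they are given as counts. Without DMSO 1 only 10 of the 18 passed (Hc, Hist2h2ac, Ppp1r14c, Rrm2, Stmn1, Top2a, Tuba1b and Unc5c did not), and without DMSO 2 only 12 (Hist2h2ac, Rrm2, Top2a, Tuba1b, Tubb5 and Unc5c did not). Without BPTES 2 the calls of Hist1h2ae, Ppp1r14c, Rrm2 and Unc5c were lost, and without BPTES 1 those of Hc and Hist2h2ac. With library totals in place of TMM scaling 14 passed, without Hc, Hist2h2ac, Rrm2 and Top2a.

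**Figure D3:**
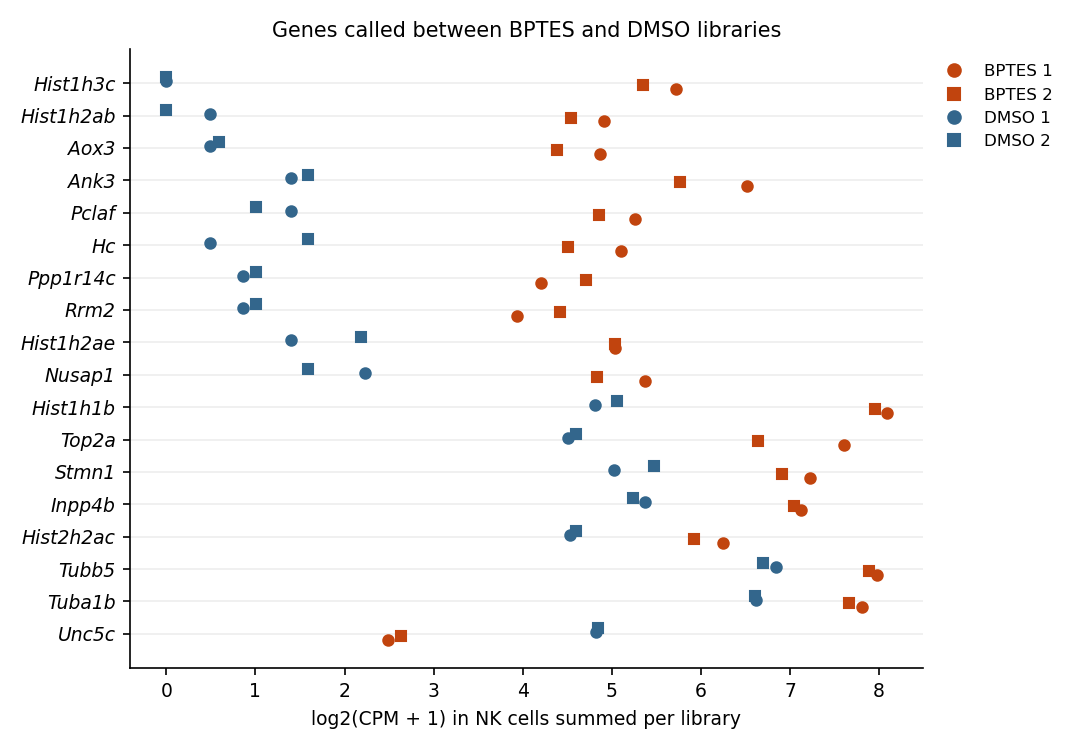
The 18 genes called between treatments, as log2(CPM + 1) of NK counts summed per library; BPTES in red, DMSO in blue, circles for replicate 1 and squares for replicate 2. In 17 genes both red points lie to the right of both blue points, and Unc5c, at 4.61 and 5.21 CPM against 27.4 and 27.7 CPM, lies the other way. Of all genes tested, 20.1% were higher and 19.6% lower under BPTES without overlap. Only Stmn1, Top2a, Hist1h1b, Hist2h2ac, Tubb5, Tuba1b and Inpp4b were abundant enough to test in either treatment alone, so the others had to differ.

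Of the 18 tested genes of the cell cycle list, 9 were abundant enough in either treatment alone, and of these Stmn1 and Top2a rose, against 0.0777% of all such genes. The others, among them Ccna2, Birc5, Rrm2 and Mki67, were testable only through their BPTES counts. Stmn1, encoding the tubulin-binding protein stathmin, had 148 and 119 CPM under BPTES and 31.5 and 43.4 CPM under DMSO (log2 fold change 1.84 ± 0.19 SE, adjusted p = 0.0186). Top2a, the topoisomerase that untangles replicated DNA, had 193 and 98.9 CPM under BPTES and 21.7 and 23.2 CPM under DMSO (log2 fold change 2.70 ± 0.33 SE, adjusted p = 0.0353). Both BPTES values lay above both DMSO values for each. Rrm2, a subunit of ribonucleotide reductase, had 28 and 43 UMIs under BPTES and 2 in each DMSO library. Mki67, the proliferation marker, had 317 and 176 UMIs under BPTES and 7 and 62 under DMSO, and it was not called.

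Called genes outside that list included replication-dependent histones and tubulins. Hist1h1b, a linker histone gene, had 270.3 and 248 CPM under BPTES and 27.0 and 32.3 CPM under DMSO (log2 fold change 3.13 ± 0.14 SE, adjusted p = 0.000506). Hist1h3c had 101 and 84 UMIs under BPTES and none under DMSO, at least 66.2-fold higher against a floor of 3 UMIs over the DMSO group. Hist1h2ab had 57 and 47 UMIs against 1 and 0, Hist1h2ae 62 and 67 against 4 and 7, and Hist2h2ac 147 and 126 against 54 and 46. These histone genes are near-identical copies, so their single values are uncertain. Tubb5 (249.8 and 236 CPM under BPTES and 114 and 102 CPM under DMSO, log2 fold change 1.17 ± 0.12 SE, adjusted p = 0.0172) and Tuba1b (224 and 201 CPM under BPTES and 96.9 and 96.3 CPM under DMSO, log2 fold change 1.13 ± 0.12 SE, adjusted p = 0.0186), tubulins of the spindle and cytoskeleton, rose in the sum over all NK cells. Pclaf, a PCNA-associated factor, had 73 and 59 UMIs against 4 and 2, and Nusap1, a spindle protein, 79 and 58 against 9 and 4. Hist1h3c, Hist1h2ab, Hist1h2ae, Pclaf and Nusap1, like Rrm2, were abundant enough to be tested only through their BPTES counts.

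Few cells held most of the Hist1h1b and Stmn1 transcripts under BPTES. A cell with UMIs of at least 3 of the 9 genes Mki67, Top2a, Cdk1, Birc5, Ube2c, Cenpf, Ccna2, Ccnb1 and Ccnb2 was taken as cycling. There were 5 such NK cells (4.24%) in BPTES 1, 3 (2.10%) in BPTES 2, none in DMSO 1 and 2 (1.50%) in DMSO 2. By a UMI of Mki67 alone the treatments overlapped, with 8 cells (6.78%) and 8 cells (5.59%) under BPTES and 5 (2.96%) and 15 (11.3%) under DMSO. The cycling cells had median depths of 36861 and 42674 UMIs in the BPTES libraries and 20308.5 UMIs in DMSO 2, against 13125 to 13866 UMIs for the other NK cells. In BPTES 1 and 2 they held 95.3% and 91.6% of the Hist1h1b UMIs and 67.1% and 70.5% of the Stmn1 UMIs. Without the cycling cells, 12 of the 18 genes were still abundant enough to test and 4 of them passed, in a total of 6 calls. The log2 fold change was then -0.64 for Hist1h1b, 0.37 for Stmn1 (adjusted p = 0.778), 0.33 for Hist2h2ac (0.778), 0.32 for Tubb5 (0.635) and 0.027 for Tuba1b (0.985). T cells had 2.03 to 2.50% cycling cells by the same definition, lower in both BPTES libraries (2.03 and 2.04%) than under DMSO (2.44 and 2.50%).

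**Figure D4:**
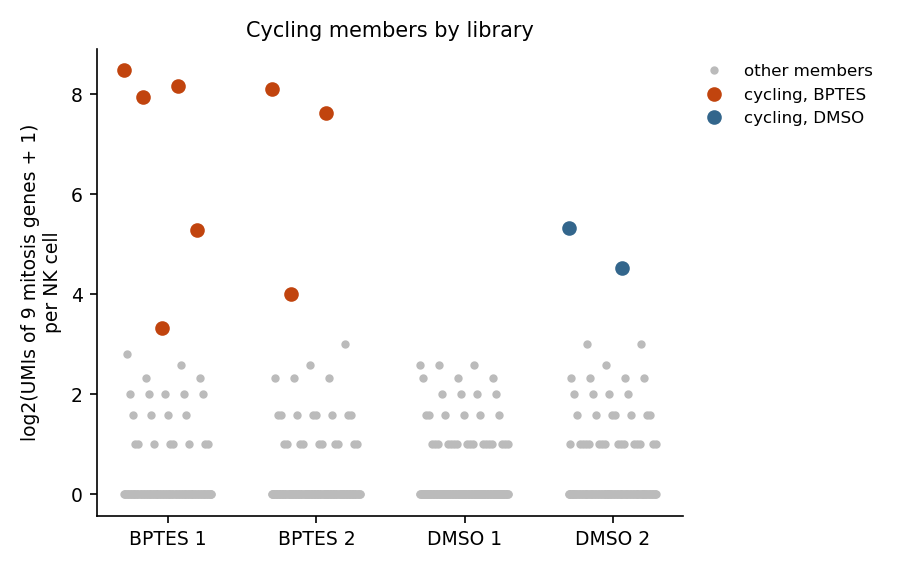
UMIs of the 9 mitosis genes per NK cell, as log2(UMIs + 1), by library; coloured points are cells with UMIs of at least 3 of these genes, grey points all other NK cells. BPTES 1 holds 5 coloured points and BPTES 2 holds 3, DMSO 1 holds none and DMSO 2 holds 2.

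Promoters of Top2a and Rrm2, called genes of the cycle list, were read from RefSeq to show the elements that such promoters are known for, a CCAAT box, bound by NF-Y, and a cell cycle genes homology region with the letters TTTGAA. The 250 bases before the start were searched on both strands (CCAAT or ATTGG, and TTTGAA or TTCAAA), and matches are in capitals. Of 32851 mouse promoters of that length, 33.8% held a CCAAT match and 16.0% a TTTGAA match. Top2a (chr11:99024190-99024439, GRCm38.p6, minus strand) held 6 and 2 matches, and Rrm2 (chr12:24708004-24708253, plus strand) held 1 and 0. A match describes letters and not a bound site. The sequences run 5′ to 3′ on the strand of the gene.
Top2a: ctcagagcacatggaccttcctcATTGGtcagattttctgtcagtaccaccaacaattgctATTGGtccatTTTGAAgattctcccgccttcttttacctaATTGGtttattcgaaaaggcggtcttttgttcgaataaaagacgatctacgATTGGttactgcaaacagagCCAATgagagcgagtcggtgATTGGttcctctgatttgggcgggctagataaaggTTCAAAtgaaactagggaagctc
Rrm2: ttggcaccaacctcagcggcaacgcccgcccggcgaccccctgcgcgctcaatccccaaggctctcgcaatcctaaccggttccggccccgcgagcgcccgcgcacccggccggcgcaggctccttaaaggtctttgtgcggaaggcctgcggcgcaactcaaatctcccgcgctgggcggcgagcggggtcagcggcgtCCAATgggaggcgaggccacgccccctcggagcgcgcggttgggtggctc

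Inpp4b, encoding inositol polyphosphate-4-phosphatase type II, which removes a phosphate from phosphoinositides of the PI3K pathway, was the one called gene of the ILC1 and tissue residence list. The gene lies at chr8:81342556-82127914 (plus strand, GRCm38). It had 139 and 131 CPM under BPTES and 40.5 and 36.8 CPM under DMSO (log2 fold change 1.80 ± 0.14 SE, adjusted p = 0.00745). Both BPTES libraries were higher, and in UMIs they held 271 and 277 against 99 and 73. The share of NK cells with a UMI was closer, at 23.7% and 23.8% under BPTES and 15.4% and 18.0% under DMSO. Cycling cells held at most 1.85% of the Inpp4b UMIs in any library. B cells, a class with abundant Inpp4b, had 431 to 493 CPM, and the part of other cells' RNA in the NK difference was not tested.

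The level of Inpp4b was highest in the NK cells that had UMIs of only 2 or 3 of the 4 further genes. These were 11.0% and 11.2% of NK cells under BPTES and 8.88% and 7.52% under DMSO. In them Inpp4b stood at 740.0 and 931 CPM under BPTES (189 and 221 UMIs in 13 and 16 cells) and at 268 and 270.4 CPM under DMSO (36 and 26 UMIs in 15 and 10 cells). In each library 2 of these cells held 45.7 to 86.1% of the Inpp4b UMIs of the set, the most under DMSO. In the cells with all 4 genes it stood at 47.9 and 29.1 CPM under BPTES and 27.4 and 24.8 CPM under DMSO. The latter cells also differed from the former in Il7r, at 50.3, 56.6, 55.6 and 41.1 CPM with all 4 genes and 576, 274, 588 and 510 CPM with 2 or 3, and in Eomes, at 292, 357, 293 and 272 CPM against 35.2, 168, 156 and 156 CPM in BPTES 1, BPTES 2, DMSO 1 and DMSO 2. Cxcr6, of the ILC1 list, stood at 4.68, 0, 2.60 and 4.75 CPM with all 4 genes and 86.1, 135, 81.9 and 20.8 CPM with 2 or 3. Itga1, of the same list, did not separate them in every library. It stood at 106, 33.2, 130 and 164 CPM with all 4 genes and 137, 185, 149 and 104 CPM with 2 or 3, lower with 2 or 3 in DMSO 2. Restricted to cells with all 4 genes, the treatment difference of Inpp4b was 0.58 on the log2 scale (adjusted p = 0.533), and with at least 3 it was 1.85 (adjusted p = 0.175). With the stricter removal of cells holding other-lineage UMIs it was -0.07.

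**Figure D5:**
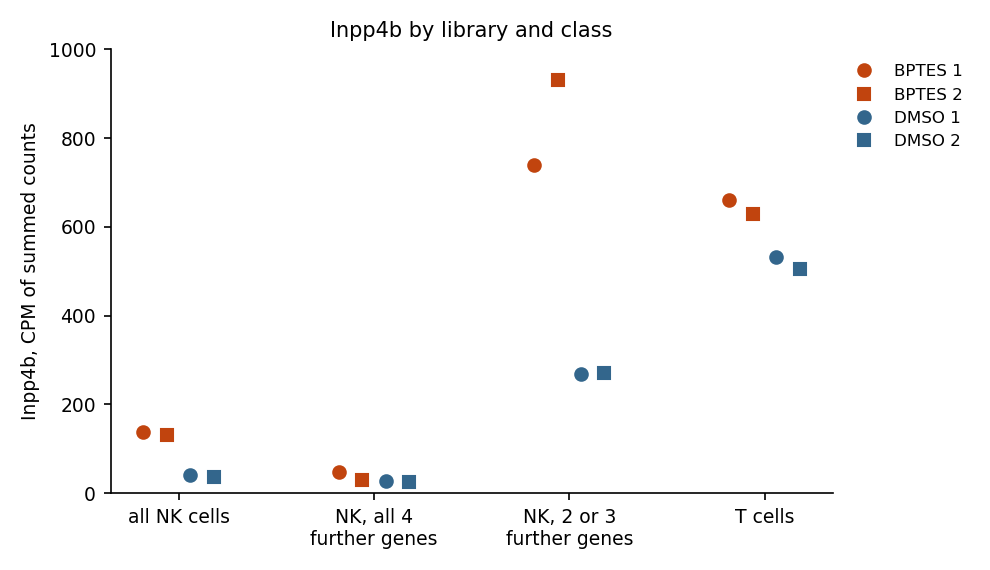
Inpp4b in CPM of summed counts per library, for all NK cells, NK cells with UMIs of all 4 or of 2 or 3 of Klrb1c, Klre1, Prf1 and Gzma, and T cells; BPTES in red, DMSO in blue. The NK cells with 2 or 3 genes reach 740.0 and 931 CPM under BPTES and 268 and 270.4 CPM under DMSO, while those with all 4 lie between 24.8 and 47.9 CPM.

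The remaining calls rested on cells rich in other-lineage UMIs. Ank3, an adaptor of the membrane skeleton, had 177 and 113 UMIs under BPTES and 4 in each DMSO library, and rich cells held 98.9% and 95.6% of the BPTES UMIs. Aox3, Hc and Ppp1r14c had 55 and 42, 65 and 46, and 34 and 53 UMIs under BPTES, and rich cells held 84.8 to 98.2% of them. All 4 genes were testable only through their BPTES counts. Unc5c, a netrin receptor gene and the only lower call, had 4.61 and 5.21 CPM under BPTES and 27.4 and 27.7 CPM under DMSO, with 63.6 to 100% of its UMIs in rich cells, and was testable only through its DMSO counts. The Unc5c call was lost at equal cell numbers (adjusted p = 0.392), with at least 2 UMIs of Ncr1 (0.0547), without cycling cells (0.0699) and without BPTES 2 (0.082), DMSO 1 (0.107) or DMSO 2 (0.0842). It lies under the mean level of 20 CPM set for named genes and was named after its values were seen. The rule for named genes gave 5 more genes lower under BPTES that did not pass the test, led by Syne1, a nuclear envelope gene, at 105 and 117 CPM under BPTES and 199 and 234 CPM under DMSO (log2 fold change -0.96 ± 0.13 SE, adjusted p = 0.0548), and followed by Astn2, Kitl, Ghr and Gm26740. Syne1 passed with DESeq2 (adjusted p = 0.0013), with all 4 further genes (0.0262), with at least 2 UMIs of Ncr1 (0.0335), with the replicate block (0.0435) and with every gene that had a UMI (1.05e-08). Gm26740 passed with DESeq2 (0.0151) and without the rich cells (0.0321), Astn2 without BPTES 1 (0.038), Kitl without DMSO 2 (0.0368) and Ghr with all 4 further genes (0.0409). The 5 endothelial markers were lower under BPTES as well, all 5 without overlap, against 19.6% of all genes tested (median log2 fold change -0.999). Whether endothelial RNA had a part in the lower values of Syne1, Astn2, Kitl, Ghr and Gm26740 was not tested. Without the rich cells 44 genes passed, among them all 13 of the 18 still tested. Without both rich and cycling cells 7 of the 18 were still tested, and 7 genes passed, of which Inpp4b was among the 18.

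None of the 11 tested immature or 10 tested mature genes passed the test between treatments. The immature list had a median log2 fold change of 0.33, with 6 of the 11 genes higher without overlap and none lower, and the mature list one of -0.19, with 5 of the 10 lower without overlap and none higher. Of all genes tested 20.1% were higher and 19.6% lower without overlap. Ltb had 48.6 and 64.9 CPM under BPTES and 32.7 and 32.3 CPM under DMSO (log2 fold change 0.80 ± 0.20 SE, adjusted p = 0.295), and Emb had 755 and 859 CPM under BPTES and 737 and 542 CPM under DMSO (0.33, adjusted p = 0.581). Ly6c2 had 673 and 638 CPM under BPTES and 818 and 765 CPM under DMSO (-0.27, adjusted p = 0.439). Gzmb had 1022 and 665 CPM under BPTES and 1078 and 1122 CPM under DMSO (-0.38, adjusted p = 0.602), both BPTES values under both DMSO values and BPTES 2 the lowest. Without BPTES 1 the log2 fold change of Gzmb was -0.73 and passed (adjusted p = 0.0273). Cx3cr1, the fractalkine receptor gene of patrolling cells, had 78.8 and 40.7 CPM under BPTES and 85.9 and 95.3 CPM under DMSO (-0.60, adjusted p = 0.581). Cd27 (69.6 and 95.6 CPM under BPTES and 89.6 and 54.0 CPM under DMSO) overlapped between treatments, whereas Itgam (177 and 148 CPM under BPTES and 179.6 and 212 CPM under DMSO, adjusted p = 0.64) did not, by a margin smaller than the spread within either group. Klrg1 (181 and 168 CPM under BPTES and 169 and 204 CPM under DMSO) overlapped.

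Of 16 tested granule genes outside the rule none passed, 3 were lower at an unadjusted p under 0.05, against 4.38% of all genes tested, and the median was -0.06. Fasl, encoding the death ligand FasL, had 355 and 396 CPM under BPTES and 475 and 460.4 CPM under DMSO (-0.32, adjusted p = 0.416). Nkg7, a granule membrane gene, had 2103 and 2020.1 CPM under BPTES and 2056 and 2252 CPM under DMSO (-0.06, adjusted p = 0.876). The genes of the rule, given without a test, were Prf1 at 1126 and 998 CPM under BPTES and 1547 and 1487 CPM under DMSO, Gzma at 6373 and 5239.8 CPM under BPTES and 6793 and 7438 CPM under DMSO, Ncr1 at 555 and 554 CPM under BPTES and 617 and 565 CPM under DMSO, Klrb1c at 566 and 518 CPM under BPTES and 651 and 645 CPM under DMSO and Klre1 at 686 and 748 CPM under BPTES and 719 and 710.1 CPM under DMSO. UMIs of these genes chose the cells, so their levels are a description only.

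Receptor genes did not pass the test in either class. Of 17 activating receptor and adaptor genes 3, and of 14 inhibitory receptor genes 1, were higher at an unadjusted p under 0.05, against 4.8% of all genes tested. Cd226, encoding the activating receptor DNAM-1, had 98.8 and 107 CPM under BPTES and 64.6 and 62.5 CPM under DMSO (log2 fold change 0.69 ± 0.13 SE, adjusted p = 0.161). Klrc1, encoding the inhibitory receptor NKG2A, had 321 and 308 CPM under BPTES and 272 and 240.1 CPM under DMSO (0.29, adjusted p = 0.491). Klra9 had 462 and 506 CPM under BPTES and 532 and 513 CPM under DMSO (-0.11, adjusted p = 0.801), both BPTES values narrowly under both DMSO values. Of 11 Klra genes, an NK cell had UMIs of a median of 3.5 and 4 under BPTES and 4 in both DMSO libraries, and none in 9.32% and 5.59% of cells under BPTES and 4.14% and 4.51% under DMSO. T cells had a mean of 0.372 to 0.620 and B cells of 0.0913 to 0.118 of these genes per cell.

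Of 20 transcription factor genes none passed, with a median of 0.03. Eomes (261 and 344 CPM under BPTES and 285 and 268 CPM under DMSO) overlapped, Tbx21 had 335 and 293 CPM under BPTES and 398 and 359 CPM under DMSO (-0.27, adjusted p = 0.54), and Irf8 had 1023 and 1177 CPM under BPTES and 1467 and 1565 CPM under DMSO (log2 fold change -0.46 ± 0.10 SE, adjusted p = 0.209). Both BPTES values of Irf8, a regulator also active in myeloid cells, lay under both DMSO values, and Irf8 passed with DESeq2 (adjusted p = 0.0151), without the rich cells (log2 fold change -0.49, 0.0485) and with every gene that had a UMI (0.00018). None of 9 cytokine and chemokine genes, 14 cytokine receptor genes or 18 trafficking genes passed. Ccl5 had 8590.1 and 7476 CPM under BPTES and 9134 and 10232 CPM under DMSO (-0.27, adjusted p = 0.416), and Ifng, encoding interferon gamma, had 154 and 179 CPM under BPTES and 169 and 123 CPM under DMSO (adjusted p = 0.815). Il18rap had 796 and 756 CPM under BPTES and 933 and 935 CPM under DMSO (-0.27, adjusted p = 0.416). In the ILC1 list of 8 tested genes, where Inpp4b was the call, Cxcr6 had 15.4 and 15.1 CPM under BPTES and 6.95 and 5.55 CPM under DMSO (1.27, adjusted p = 0.35), while Itga1, encoding CD49a, had 111 and 51.1 CPM under BPTES and 130.5 and 162 CPM under DMSO (-0.85, adjusted p = 0.478). Cd200r1, testable only through its BPTES counts and not called, had 8.70 and 16.1 CPM under BPTES and 2.86 and 4.54 CPM under DMSO.

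Glutamine feeds the citric acid cycle and amino acid synthesis by way of glutamate. Of 21 tested genes of glutamine uptake and use none passed the test and none had an unadjusted p under 0.05, the median log2 fold change was 0.07, and 7 of 21 were higher without overlap, against 20.1% of all genes tested, and none lower, against 19.6%. Glul, encoding glutamine synthetase, had 89.6 and 74.8 CPM under BPTES and 88.3 and 82.2 CPM under DMSO (-0.06, adjusted p = 0.953), and Slc1a5, a glutamine transporter gene, had 64.5 and 55.9 CPM under BPTES and 47.4 and 59.5 CPM under DMSO (0.17, adjusted p = 0.844). Both overlapped between treatments. Slc38a2, another transporter gene, had 296 and 284 CPM under BPTES and 314 and 236 CPM under DMSO, and Phgdh, the first enzyme of serine synthesis, had 25.1 and 26.0 CPM under BPTES and 19.2 and 15.1 CPM under DMSO (0.56, adjusted p = 0.557).

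No gene of the stress and metabolic lists passed in the fit of all NK cells, though Hspa8 and Hsp90ab1 did under other settings. None of 16 amino acid stress genes under ATF4, 17 glycolysis genes, 21 interferon response genes, 11 MHC class I presentation genes or 12 survival and death genes passed. At an unadjusted p under 0.05, 3 interferon response genes were higher and 1 was lower, and 1 amino acid stress gene was lower. The other lists had none. Of all genes tested 4.8% were higher and 4.38% lower at that p. Of 8 heat shock chaperone genes none passed, but 6 were higher at an unadjusted p under 0.05, against 4.8% of all genes tested, and all 8 were higher without overlap, against 20.1%, though Hspa1a was testable only through its BPTES counts (median log2 fold change 0.71). Hspa8, encoding the constitutive chaperone HSC70, had 887 and 1193 CPM under BPTES and 582 and 583 CPM under DMSO (log2 fold change 0.84 ± 0.14 SE, adjusted p = 0.116). Hspa8 passed with DESeq2 (adjusted p = 1.68e-05), with every gene that had a UMI (1.42e-12), without the rich cells (log2 fold change 0.84, adjusted p = 0.0231), without rich or cycling cells (0.0126), with all 4 further genes (0.0464) and without BPTES 1 (0.0117). Hsp90ab1 had 920.3 and 1429 CPM under BPTES and 773 and 717 CPM under DMSO (0.66, adjusted p = 0.362), and passed without BPTES 1 (0.94, adjusted p = 0.0134) and with every gene that had a UMI (3.48e-08). Of 13 immediate early genes 5 were lower without overlap, against 19.6% of all genes tested, and none higher, with Nr4a1 at 372 and 407 CPM under BPTES and 538 and 485 CPM under DMSO (-0.39, adjusted p = 0.338) and Junb at 1609 and 1609 CPM under BPTES and 1951 and 1793 CPM under DMSO (-0.22, adjusted p = 0.478). Of 6 senescence genes tested, Cdkn1a, encoding the cell cycle inhibitor p21, had 94.2 and 60.6 CPM under BPTES and 121 and 118 CPM under DMSO (-0.63, adjusted p = 0.416), and Cdkn2a, with 2, 0, 3 and 1 UMIs in all, was too low to test.

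T cells, the most similar class, were used to ask where the NK response to BPTES differed. They were 4180 barcodes with Cd3d or Cd3e and Trac and without Ncr1 or Cd79a. Of 13840 genes tested for a difference between the 2 responses, 1 passed (0.00723%), Inpp4b, and none with a lower response in NK cells. At an unadjusted p under 0.05 there were 933 genes (6.74%), 418 of them (3.02%) with a lower response in NK cells, and DESeq2 called 39 genes, 7 of them lower. Inpp4b had 136 and 129 CPM under BPTES and 39.8 and 36.2 CPM under DMSO in NK cells, and 659, 628, 532 and 505 CPM in T cells of the same libraries (NK minus T difference 1.49 ± 0.12 SE, adjusted p = 0.0471). T cells carried more Inpp4b than NK cells in every library, and their BPTES values were above their DMSO values too. With NK cells restricted to all 4 further genes edgeR called no gene (1034 had an unadjusted p under 0.05), and the Inpp4b difference was 0.25 (adjusted p = 0.869). Leaving out BPTES 1 gave 218 calls, BPTES 2 gave 109, DMSO 1 gave 56 and DMSO 2 gave 77, with Inpp4b among them each time.

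Next in rank, and not called, were the cycle-related genes Tubb5 (1.26 ± 0.14 SE, adjusted p = 0.0781), Hist1h1b (3.84 ± 0.47 SE, adjusted p = 0.0781) and Tuba1b (1.26 ± 0.16 SE, adjusted p = 0.0781), together with Ank3. Klra9 had 453 and 497 CPM under BPTES and 523 and 504 CPM under DMSO in NK cells, and 13.3, 11.5, 29.9 and 30.9 CPM in T cells of the same libraries (difference 1.19 ± 0.15 SE, adjusted p = 0.0781). Tubb5, Hist1h1b, Tuba1b, Ank3, Klra9 and Syne1 passed with DESeq2, with every gene that had a UMI and with each of the 4 libraries left out in turn, which leaves 1 library in a treatment. The difference was reversed for Hist1h1b without cycling cells and for Ank3 without rich cells. Both BPTES values of Klra9 lay under both DMSO values in each class, by a small margin in NK cells and by a wide one in T cells. Among genes with a lower response in NK cells, Syne1 led (difference -1.02 ± 0.13 SE, adjusted p = 0.0781), followed by Limch1, Cp, Cald1 and Ptprd, none of which passed in the fit of all libraries. The 5 endothelial markers had a median NK minus T difference of -1.17, and 2 were lower at an unadjusted p under 0.05, against 3.02% of all genes tested. The part of endothelial RNA in the difference of Syne1, Limch1, Cp, Cald1 or Ptprd was not tested. Limch1 and Cald1 passed with DESeq2 and with any single library left out, and Cp without BPTES 1, BPTES 2 or DMSO 2.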

How the data were processed

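The authors deposited 1 filtered matrix of raw UMI counts per library, made with Cell Ranger 8.0.1 per the file headers and aligned to mm10 per the submitters' processing notes; settings of cell calling and any removal of free RNA are not given in the sources used here. UMIs count molecules once, so amplification does not inflate them, but free RNA and doublets can add other cells' transcripts. NK cells were taken by the stated rule with Python 3.11.15 (numpy 2.4.6, scipy 1.17.1, pandas 2.3.3, matplotlib 3.10.9). The members and the 31 gene lists were chosen with earlier results of these data known, so their counts are descriptions and no list was tested as a set.

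Shares at 3000 UMIs are expected shares after drawing that many UMIs without replacement from each cell. Intervals and floors cover counting error only. For the stages each cell was thinned once with a fixed seed. Counts were summed per library and fitted in R 4.3.3 with edgeR 4.0.16 (TMM, filterByExpr, quasi-likelihood test, Benjamini-Hochberg adjustment over all genes tested), with library as a term for stages and for the NK and T cell difference; DESeq2 1.42.0 was an alternative. CPM values are of summed counts with TMM library sizes in the fits and of plain totals elsewhere, and errors of log2 fold changes are approximate. On simulated counts, 85.6% of 188 genes changed 4-fold were recovered between treatments, 95.5% of 179 between stages and 62.8% of 196 for the NK and T cell difference. These are the genes that reached the filter out of 200 changed each time, and smaller changes were not simulated. Each gene took its spread from a trend over all genes, and transcripts held by few cells were not modelled. Named genes were, in each direction, at most 10 called genes of largest fold change with no overlap and a mean of at least 20 CPM (where under 5 were called, the 5 with the smallest p), called members of the lists, key genes, and 2 to 4 examples per list with the highest mean or the smallest p; other called genes were named after their values were seen. Gene positions are from GENCODE M21 on GRCm38, the assembly called mm10. One of the key genes is not reported here.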

Additional observations from a re-analysis of the deposited data

Results flagged for a closer look

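The response of Inpp4b to BPTES differed between NK cells and T cells by the test of the difference itself, with a log2 difference of 1.49 (NK minus T, edgeR's quasi-likelihood test, adjusted p = 0.0471). It was the one gene of 13840 tested to do so. Inpp4b was higher with BPTES in both NK libraries, by 1.80 on the log2 scale, and restricting NK cells to those with UMIs of all 4 further genes gave a difference of 0.25 (adjusted p = 0.869).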

How the results depend on the processing

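The NK share differed between treatments by -0.815 to 0.527 percentage points when 1 library was left out, the upper end without DMSO 1. For maturation shares those ranges were 0.101 to 4.98 for Cd27 only, -0.700 to 0.719 for both genes, -6.35 to -2.75 for Itgam only, 0.821 to 3.18 for neither and -3.11 to 1.76 for Klrg1. The share with both genes was reversed at a mitochondrial limit of 5% (-0.0175), at 5000 (-0.124) and 10000 (-1.49) UMIs per cell and without other-lineage barcodes (-0.0368). Without other-lineage barcodes (at least 3 UMIs over 2 genes of one list) the differences for Itgam only (0.341), neither (-3.26) and Klrg1 (3.15) were reversed too, as were neither without thinning (-3.40) and Klrg1 in cells with all 4 further genes (0.413).

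Calls between treatments, 18 in all, became 42 with all 4 further genes, 44 without cells rich in other-lineage UMIs, 6 without cycling cells (12 of the 18 still tested), 7 without either (7 still tested), 38 with DESeq2, 473 with every gene that had a UMI, and 17 to 66 when 1 library was left out (66 without BPTES 1, 30 without BPTES 2). Without other-lineage barcodes edgeR called 0 of 6757 genes (474 at an unadjusted p under 0.05); only 7 of the 18 were still tested, among them Hist1h1b, Top2a, Stmn1, Tubb5 and Tuba1b with log2 fold changes of 3.77, 2.45, 1.73, 1.21 and 1.08. Stage calls, 221 in all, became 79 with DESeq2, 108 at 2000 and 686 at 10000 UMIs per cell, and 108 to 170 without 1 library. Calls of the NK and T cell difference, 1 in all, became 39 with DESeq2, 318 with every gene that had a UMI, 31 without rich cells, 0 with all 4 further genes and 56 to 218 without 1 library. The cause of these shifts was not tested. With the replicate number as a block 22 genes were called between treatments. The labels give no pairing, and the numbers were not taken as pairs. Deviations from the treatment means had a correlation of -0.0912 between BPTES 1 and DMSO 1 and 0.0912 between BPTES 1 and DMSO 2. With 2 libraries per treatment these are the same value with the sign turned, so they cannot decide whether libraries were paired.

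Among named genes, log2 fold changes between treatments were reversed without cycling cells for Hist1h1b (-0.64) and Top2a (-0.23), itself one of the genes that define those cells, and without cycling or rich cells (-0.89 and -0.076). Without other-lineage barcodes they were reversed for Inpp4b (-0.074), Itgam (0.036), Klrg1 (0.12), Ifng (-0.44), Glul (0.27), Slc1a5 (-0.090) and Slc38a2 (-0.18). Ifng was also reversed without rich cells (-0.0053), Glul at equal cell numbers (0.0051) and Nkg7 with all 4 further genes (0.015). Leaving out 1 library at a time gave ranges that crossed 0: -0.12 to 0.62 for Cd27 and -0.12 to 0.30 for Slc38a2 (lowest without DMSO 2), -0.085 to 0.32 for Eomes (lowest without BPTES 2), -0.19 to 0.070 for Glul (highest without BPTES 2), -0.22 to 0.040 for Klrg1 and -0.13 to 0.00089 for Nkg7 (highest without DMSO 2), and -0.026 to 0.44 for Ifng (lowest without DMSO 2). Lyz2 was reversed between stages at 2000 UMIs (-0.30), and in the NK and T cell difference Hist1h1b without cycling cells (-0.029) and Ank3 without rich cells (-1.31). Per-cell depth limits the stage assignment, and 118 to 169 NK cells per library limit rare states.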
